A study of Mus musculus with 6 samples.

Results

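Serine proteases, most of them membrane-bound, and Kunitz-type inhibitors of such proteases were examined in the luminal epithelium of the mouse uterus. This is the sheet of cells to which the embryo attaches. The set was defined by gene symbol and holds 7 of the 24964 genes in the deposited expression table: the proteases St14, Prss8, Prss22, Tmprss2 and Tmprss4, and the inhibitors Spint1 and Spint2. All 7 were above 0 in every sample and all 7 passed the minimum of a mean of 1 FPKM (an expression level per gene length and per library depth) that 11427 genes passed.

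St14 encodes matriptase, a protease anchored in the membrane of most epithelia. It takes part with prostasin, the product of Prss8, in a cascade in which each can promote activation of the other, and both are required for epithelial barriers. The inhibitors HAI-1 (Spint1) and HAI-2 (Spint2) bind these proteases through Kunitz domains and also accompany matriptase on its way to the cell surface. Substrates of the proteases include the epithelial sodium channel, the receptor PAR2 and the adhesion molecule EpCAM, and cleavage of the sodium channel by serine proteases has been reported in the mouse uterus around implantation.

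RNA-seq had been made on pregnancy day 4 from laser-captured epithelium of 2 groups of 3 samples each. Foxo1dd samples came from Pgrcre/+Foxo1f/f females, which carry a Cre gene at 1 allele of Pgr, the progesterone receptor gene, beside floxed Foxo1. Foxo1ff samples came from Foxo1f/f females, with the same floxed Foxo1 and no Cre. Females of both genotypes were kept with littermates to 8 weeks of age and mated with stud males. Pgr-driven Cre acts in cells that express the progesterone receptor, which in the uterus includes stroma and muscle beside the epithelium, and it is also active outside the uterus, in the ovary and pituitary. Since the samples are labelled only as bioreplicates, with nothing on how many animals each holds, the p-values cover no more than the spread among these 6.

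The targeted gene Foxo1 had 1.72, 0.942 and 1.22 FPKM in Foxo1dd, against 160.0, 119 and 111 FPKM in Foxo1ff. Pgr, the locus with the Cre insertion, had 28.3 to 36.2 FPKM in Foxo1dd and 1.64 to 2.44 FPKM in Foxo1ff. Summed FPKM was 552190 to 564628 per sample in Foxo1dd and 613186 to 667499 in Foxo1ff, and Foxo1dd 2 stood apart with 13995 genes above 0, against 15474 to 16062 in the other 5. Without it the calls of the 7 genes were the same. The 13 epithelial markers were all expressed, with a summed level of 4448 to 5562 FPKM in Foxo1dd and 3149.8 to 4201 FPKM in Foxo1ff. Of these markers, 5 were called higher and 2 lower in Foxo1dd. Beside this and the marker counts that follow, 22.2% of all tested genes were called higher and 34.2% lower. Summed markers of stroma (9 genes, 12.2 to 23.1 FPKM in Foxo1dd and 13 to 18.2 in Foxo1ff), smooth muscle (5 genes, 3.77 to 4.76 FPKM in Foxo1dd and 2.98 to 5.20 in Foxo1ff) and endothelium (6 genes, 0.851 to 2.80 FPKM in Foxo1dd and 0.640 to 0.786 in Foxo1ff) were far lower in both groups. The 5 luminal markers summed to 798 to 1147 FPKM in Foxo1dd and 67.7 to 90.9 FPKM in Foxo1ff, with 5 called higher in Foxo1dd. Leukocyte markers (10 genes, 1 called higher and 4 lower, S100a8 at 0 throughout) summed to 8.33 to 15 FPKM in Foxo1dd and 19.9 to 22.0 FPKM in Foxo1ff. Glandular markers (8 genes, 2 called higher and 3 lower, Ttr at 0 throughout) summed to 7.32 to 27.9 FPKM in Foxo1dd and 53.2 to 214 FPKM in Foxo1ff, a difference carried by Spink1. Without Spink1 the sums overlapped, at 7.26 to 27.6 FPKM in Foxo1dd and 4.15 to 35.4 FPKM in Foxo1ff. Without Prss28 and Prss29 as well they were higher in Foxo1dd, at 7.26 to 27.0 FPKM, against 1.60 to 5.59 FPKM in Foxo1ff. In Foxo1dd this last sum was mostly Sox9 (22.9, 6.29 and 16.0 FPKM, against 1.34, 0.386 and 3.97 FPKM in Foxo1ff). These subsets were chosen after the values were seen. Of 8 genes that mark RNA quality or handling stress, 3 were called higher in Foxo1dd (Fos, Malat1 and Neat1) and 2 lower (Jun and Hspa1a). Their summed level, mostly the ribosomal RNA precursor Rn45s, was 30760 to 40506 FPKM in Foxo1dd and 23888 to 31513 FPKM in Foxo1ff.

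Both inhibitors and most of the proteases were lower in Foxo1dd, by very different amounts. Of the 7 genes, 5 fell (Tmprss4, Spint1, Spint2, St14 and Tmprss2), 1 rose (Prss22) and 1 was not called (Prss8), where a call is an adjusted p under 0.05 from limma's fit across all tested genes. Over all tested genes 34.2% were called lower and 22.2% higher, together 56.4%, so that a call of a single gene is common in this comparison. The groups did not overlap for 6 of the 7 genes, 1 higher and 5 lower in Foxo1dd, beside 64.2% of all tested genes, of which 25.3% were higher and 39.0% lower. A called fall of at least 1 on the log2 scale was found for Tmprss4, Spint1 and Spint2 (3 of 7, against 15.8% of tested genes), and one of at least 2 for Tmprss4 and Spint1 (2 of 7, against 5.06%). Spint2, Spint1 and St14 lie near these limits. The first count was 2 under median-of-ratios scaling, under quantile normalization and without Foxo1dd 2, and 4 without Foxo1ff 3. The other count was 1 under both scalings and without Foxo1ff 1. The median log2 change of the 7 genes was -0.97, beside -0.15 for all tested genes. The sizes of the changes ran from an 11.95-fold fall of Tmprss4 to a 2.29-fold rise of Prss22. In bulk samples, fewer cells of a type and less RNA per cell cannot be told apart, and the part that the differing luminal, leukocyte, glandular and RNA quality markers have in these results was not tested.

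**Figure D1:**
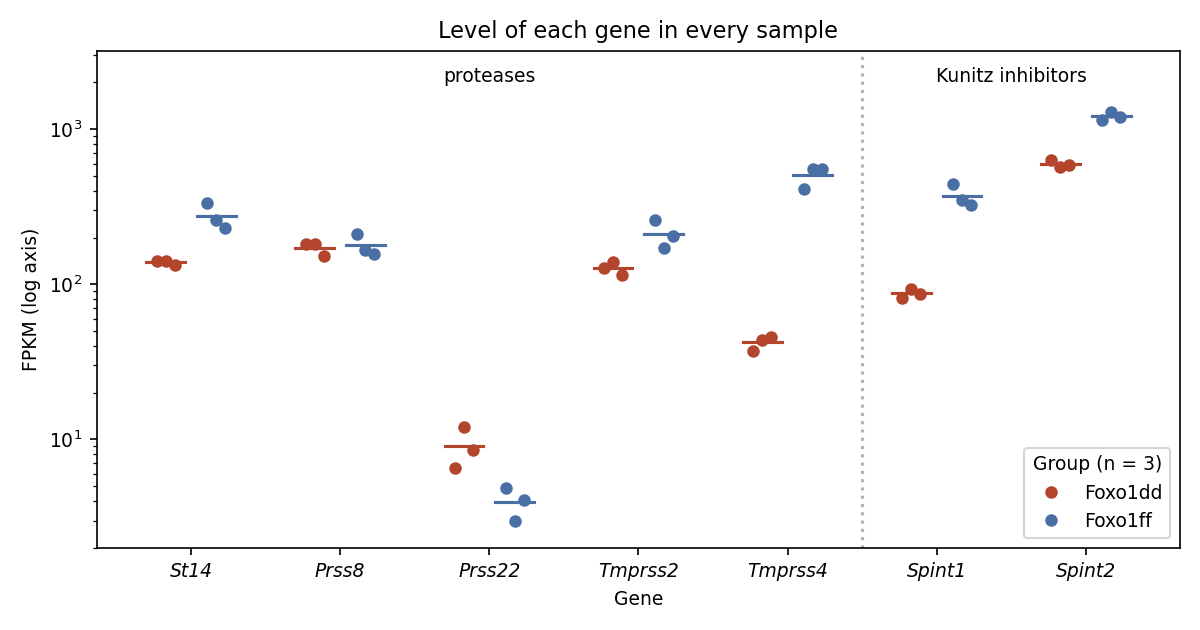
FPKM (log axis) of the 5 proteases and the 2 Kunitz inhibitors, with 1 point per sample and a bar at the mean of 3 samples, Foxo1dd left of Foxo1ff. The groups are separated for every gene except Prss8, with Tmprss4 showing the widest gap (means of 42.2 FPKM in Foxo1dd and 505 FPKM in Foxo1ff).

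Spint1, which encodes HAI-1, had 81.7, 93.1 and 87.1 FPKM in Foxo1dd, against 445, 347 and 323 FPKM in Foxo1ff. The groups did not overlap, and the Foxo1dd samples lay close together around 23.5% of the Foxo1ff mean. Its mean was 87.3 ± 5.70 FPKM in Foxo1dd and 372 ± 64.5 FPKM in Foxo1ff (SD, n = 3 each), a log2 change of -2.07 ± 0.14 (SE, limma adjusted p = 4.75e-06). A more negative log2 change was seen in 540 tested genes, 4.73% of them.

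Spint2, which encodes HAI-2, was the most abundant of the 7 transcripts per unit length in all 6 samples. It had 629.8, 573 and 590.4 FPKM in Foxo1dd, against 1138, 1296 and 1203 FPKM in Foxo1ff, so that every Foxo1dd value lay well below the lowest Foxo1ff value. The log2 change was -1.02 ± 0.12 (SE, 3 samples a group, adjusted p = 0.000112 by limma), about 2.03-fold lower. Even so its Foxo1dd mean stood above that of 98.9% of tested genes, beside 99.4% in Foxo1ff.

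The promoters of both inhibitors are shown as a description, since Foxo1 encodes a DNA-binding factor. Tmprss2 fell as well, and its window is described without its sequence. Each window runs from 250 bases before to 50 after the RefSeq start on GRCm38.p6, read along the gene, and capitals mark the motif matches listed after the sequences. The RefSeq start of Spint2 lies 65 bases upstream of the GENCODE gene, so that by GENCODE its whole window, including the last 50 bases, lies before the gene, whereas the starts of Spint1 differ by 2 bases.
Spint1, chr2:119237110-119237409, plus strand: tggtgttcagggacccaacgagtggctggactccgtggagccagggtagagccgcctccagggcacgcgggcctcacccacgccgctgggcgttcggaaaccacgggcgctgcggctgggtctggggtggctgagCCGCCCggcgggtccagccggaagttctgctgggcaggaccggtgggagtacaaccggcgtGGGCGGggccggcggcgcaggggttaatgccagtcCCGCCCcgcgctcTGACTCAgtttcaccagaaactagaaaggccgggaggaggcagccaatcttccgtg
Spint2, chr7:29281928-29282227, minus strand: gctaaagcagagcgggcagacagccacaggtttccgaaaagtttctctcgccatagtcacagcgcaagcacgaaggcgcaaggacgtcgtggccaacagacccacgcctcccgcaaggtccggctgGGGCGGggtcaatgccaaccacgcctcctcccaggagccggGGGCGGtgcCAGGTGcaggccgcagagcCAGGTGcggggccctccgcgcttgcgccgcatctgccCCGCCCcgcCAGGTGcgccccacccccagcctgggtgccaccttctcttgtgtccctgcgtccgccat

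Both windows were GC-rich, at 69.7% for Spint1 and 69.3% for Spint2, against a median of 52.7% over 32851 RefSeq promoter windows of the same length. They held 28 and 26 CpG pairs, against a median of 7. The FOXO element GTAAACA, searched on both strands as were all motifs, was in neither window, and 3.65% of all windows hold it. Sites outside the windows were not searched, and whether Foxo1 acts on these genes was not tested. The GC box GGGCGG had 3 matches in each, a number that 10.7% of all windows, of any GC content, reach or pass. Made of G and C alone, it is likelier in GC-rich windows, and no share over windows of like GC content was taken. The E-box CAGGTG had 3 matches in the Spint2 window and 0 in that of Spint1, where 20.2% of windows hold at least 1 and 0.365% hold 3 or more. The AP-1 element TGANTCA had 1 match, in the Spint1 window, beside 7.81% of windows with any. The palindromic progesterone response element (in 0.475% of windows) and the GRHL element AACCGGTT (in 0.146%) were in neither. No matches overlapped. The Tmprss2 window, the other one of the set in the table, had a GC content of 62.3% and matched none of these motifs.

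Matriptase and prostasin, the proteases at the head of the cascade, differed in their response. St14 had 140.2, 142 and 132 FPKM in Foxo1dd, against 334, 260.0 and 231 FPKM in Foxo1ff. The groups did not overlap, and the Foxo1dd samples varied little (CV 3.76%, against 19.2% in Foxo1ff). The log2 change was -0.97 ± 0.15 (SE, 3 samples a group, adjusted p = 0.000455 by limma), a mean 50.3% of that in Foxo1ff. St14 lies on chromosome 9 (31089402 to 31131853, minus strand, mm10), the chromosome that carries the Cre insertion, 22.1 Mb from Pgr. Among other tested members and related genes on chromosome 9, Tmprss4, Tmprss13 and Prss35 fell. Aplp2 (22.2 Mb from Pgr), Cdcp1 and Mst1r were not called. Whether position relative to Pgr has a part in any change was not tested.

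Prss8 was not called. Its FPKM was 180.5, 182 and 153 in Foxo1dd and 210.4, 166 and 157 in Foxo1ff, ranges that overlap, although Foxo1ff 1 lay above every Foxo1dd value. The log2 change was -0.04 ± 0.14 (SE, 3 samples a group, adjusted p = 0.823 by limma), with a 95% interval from -0.36 to 0.28, and its sign turned under median-of-ratios scaling (0.11), quantile normalization (0.12) and array weights, and without Foxo1dd 3 or Foxo1ff 1. The interval leaves room for a fall of 0.36 or a rise of 0.28 log2, but not for a fall the size of that of St14. By FPKM, Prss8 was the second highest of the 7 in all 3 Foxo1dd samples and the sixth in all 3 Foxo1ff samples. The annotation places exons of Kat8 opposite 122 exon bases of Prss8, and Kat8 had 5.85 to 7.89 FPKM in Foxo1dd and 6.4 to 7.76 FPKM in Foxo1ff, far below Prss8.

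Prss22, a tryptase-like serine protease known from human airway epithelium, was the least abundant and the only one of the 7 to rise. It had 6.54, 12.1 and 8.53 FPKM in Foxo1dd, against 4.85, 2.96 and 4.07 FPKM in Foxo1ff. The groups did not overlap, though the lowest Foxo1dd and highest Foxo1ff values lay near each other. The log2 change was 1.00 ± 0.23 (SE, 3 samples a group, adjusted p = 0.00558 by limma), with a mean of 9.05 ± 2.81 FPKM in Foxo1dd and 3.96 ± 0.946 FPKM in Foxo1ff (SD). Foxo1dd 2, the sample with the fewest genes above 0, held the highest value, and without it the change was 0.79 log2 (limma adjusted p = 0.0118).

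The 2 members of the TMPRSS family fell by very different amounts. Tmprss2, a type II transmembrane protease known for androgen-driven expression in prostate and for cleaving viral envelope proteins, had 128, 139.6 and 114 FPKM in Foxo1dd, against 260.3, 170.4 and 206 FPKM in Foxo1ff. The groups were separated by a narrow gap. The log2 change of -0.72 ± 0.16 (SE, 3 samples a group, adjusted p = 0.00498 by limma) was the smallest of the 5 falls, about 1.67-fold.

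Tmprss4, a related transmembrane protease found at raised levels in several human carcinomas, had 37.2, 43.5 and 46.0 FPKM in Foxo1dd, against 409, 549 and 556 FPKM in Foxo1ff. The highest Foxo1dd value lay far below the lowest Foxo1ff value. The log2 change was -3.54 ± 0.15 (SE, 3 samples a group, adjusted p = 4.42e-07 by limma), and 120 of the tested genes, or 1.05%, had a more negative one. In rank, its mean was above that of 80.7% of tested genes in Foxo1dd and of 98.6% in Foxo1ff. Tmprss4 also lies on chromosome 9 (45172726 to 45204092, minus strand), 36.2 Mb from Pgr, with 412 of its exon bases opposite the antisense gene Gm17099, so its value is uncertain to the extent that reads were counted without strand.

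**Figure D2:**
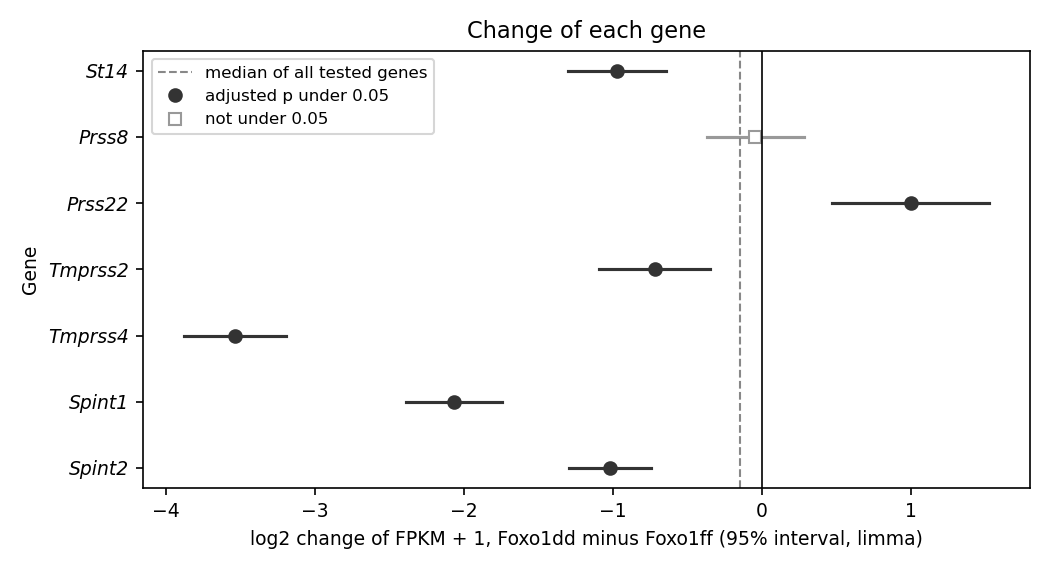
Log2 change of FPKM + 1, Foxo1dd minus Foxo1ff, for each gene with its 95% interval from limma (3 samples per group); filled circles passed an adjusted p of 0.05 and the open square did not. The dashed line is the median of all tested genes, -0.15; Tmprss4 (-3.54) and Spint1 (-2.07) lie farthest below it and Prss22 (1.00) alone lies above 0.

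Because the 7 genes changed by different amounts, their order by FPKM changed as well. That order also depends on the gene lengths used, which are not given. In Foxo1dd the means ran from Spint2 (598 FPKM) through Prss8 (172), St14 (138), Tmprss2 (127), Spint1 (87.3) and Tmprss4 (42.2) to Prss22 (9.05). In that order only the ranges of St14 and Tmprss2 overlapped, and St14 was the higher of the pair in 3 of 3 samples. In Foxo1ff the order was Spint2 (1212 FPKM), Tmprss4 (505), Spint1 (372), St14 (275), Tmprss2 (212), Prss8 (178) and Prss22 (3.96). There the ranges of all neighbours from Tmprss4 to Prss8 overlapped, although within each sample Spint1, St14, Tmprss2 and Prss8 kept this order in 3 of 3.

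Summed over the 5 proteases, the level was 492, 519.7 and 454 FPKM in Foxo1dd, against 1218, 1148 and 1155 FPKM in Foxo1ff. Tmprss4 made up 7.56% to 10.1% of that sum in Foxo1dd and 33.5% to 48.1% in Foxo1ff, while Prss8 made up 33.7% to 36.7% in Foxo1dd and 13.6% to 17.3% in Foxo1ff. St14 made up 27.4% to 29.1% in Foxo1dd and 20.0% to 27.4% in Foxo1ff. The 2 inhibitors summed to 712, 666 and 678 FPKM in Foxo1dd, against 1582, 1643 and 1526 FPKM in Foxo1ff. The protease sum divided by the inhibitor sum was 0.692, 0.780 and 0.670 in Foxo1dd and 0.770, 0.699 and 0.756 in Foxo1ff. In FPKM the totals were thus in overlapping proportion while their make-up differed. Sums, shares and this quotient weight each gene by the length used, which is not given, and other lengths would give other values.

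**Figure D3:**
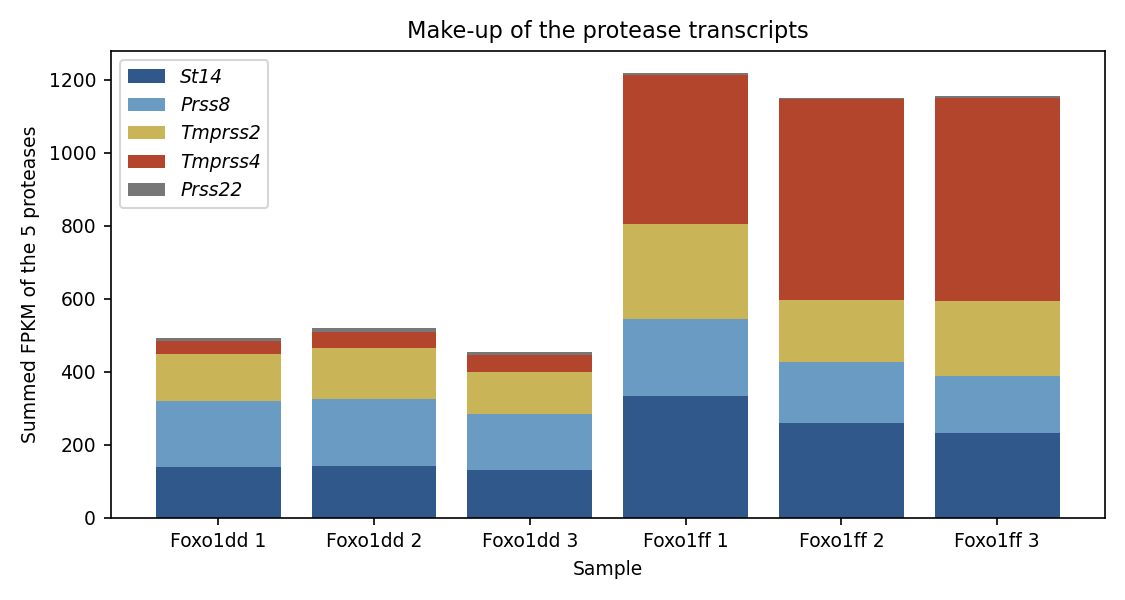
Stacked bars of FPKM for the 5 proteases in each of the 6 samples, Foxo1dd left of Foxo1ff. The Foxo1dd bars reach 454 to 519.7 FPKM and the Foxo1ff bars 1148 to 1218 FPKM, and the Tmprss4 segment shrinks to 7.56% to 10.1% of the bar in Foxo1dd.

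Ratios between 2 genes of the same sample do not depend on how that sample was scaled. St14 to Spint1 was 1.72, 1.53 and 1.52 in Foxo1dd, against 0.751, 0.749 and 0.716 in Foxo1ff. In FPKM, St14 thus lay above Spint1 in every Foxo1dd sample and below it in every Foxo1ff sample, a difference of 1.10 on the log2 scale. The side of 1 depends on the gene lengths used, which are not given, whereas the difference between the groups does not. With GENCODE M21 exon lengths (7637 bases for St14 and 2767 for Spint1), more reads are implied for St14 than for Spint1 in every sample. Prss8 to Spint1 was 2.21, 1.96 and 1.76 in Foxo1dd, against 0.473, 0.478 and 0.487 in Foxo1ff, a 4.10-fold difference.

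Against HAI-2 the picture was different. St14 to Spint2 was 0.223, 0.248 and 0.224 in Foxo1dd and 0.293, 0.201 and 0.192 in Foxo1ff, ranges that overlap, with a difference of 0.04 log2 whose sign turned without Foxo1dd 2, Foxo1ff 2 or Foxo1ff 3. Prss8 to Spint2 was 0.288 ± 0.0295 in Foxo1dd and 0.148 ± 0.0321 in Foxo1ff (SD, n = 3 each), without overlap. Spint1 to Spint2 was 0.147 ± 0.0164 in Foxo1dd and 0.309 ± 0.0709 in Foxo1ff (SD, n = 3 each), so that Spint2 made up 86.0% to 88.5% of the inhibitor sum in Foxo1dd and 71.9% to 78.9% in Foxo1ff. These ratios restate the changes of their genes and were not tested, and they describe transcripts, not protein or protease activity.

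**Figure D4:**
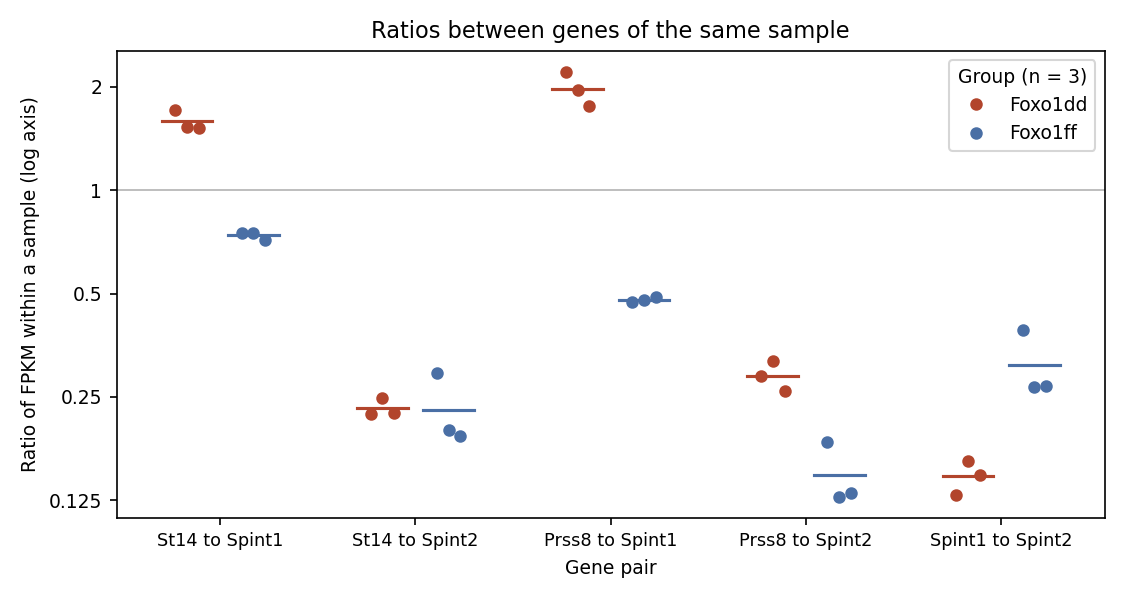
Ratio of FPKM between 2 genes of the same sample (log axis), 1 point per sample and a bar at the mean, Foxo1dd left of Foxo1ff. St14 to Spint1 and Prss8 to Spint1 lie above 1 in all Foxo1dd samples and below 1 in all Foxo1ff samples, while the groups overlap for St14 to Spint2. The side of 1 on which a ratio lies depends on the gene lengths used, which are not given.

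Profiles over the 6 samples were compared by the root mean square distance of log2(FPKM + 1) after centring each gene on its own mean. Within the set, St14 lay nearest to Tmprss2 (0.19 log2) and to Spint2 (0.20), and Tmprss4 farthest from Prss22 (2.30). The tested genes outside the set that lay nearest were Maff and Pcyox1 for St14, Snx1 and Psd3 for Prss8, D330023K18Rik and Efna3 for Prss22, and Rtl8a and Gnb5 for Tmprss2. For Tmprss4 they were Folr1 and Tmem160, for Spint1 Nr1h5 and Crim1, and for Spint2 Tmem181a and Rad9a. Distances to these genes ran from 0.04 log2 for Tmem181a to 0.14 for Efna3. With 2 groups of 3 samples, likeness by this measure is mainly a like difference between the groups on the log2(FPKM + 1) scale. That scale compresses folds of low genes, so a neighbour near 0 can differ in fold from its member. Nr1h5 averaged 0.0343 FPKM in Foxo1dd and 3.175 FPKM in Foxo1ff, and Folr1 0.395 and 15.5 FPKM.

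Other membrane and trypsin-like proteases were mostly at or near 0. Calls in the related lists stand beside a share over all tested genes of 22.2% higher and 34.2% lower. Of the 17 other type II transmembrane serine proteases in the table, 3 passed the minimum, of which 0 rose and 2 fell, and 6 were listed at 0 in every sample. Tmprss13, a protease of stratified epithelia, had 3.34, 1.37 and 2.16 FPKM in Foxo1dd, against 16.5, 18.6 and 13.1 FPKM in Foxo1ff, a log2 change of -2.40 ± 0.24 (SE, limma adjusted p = 3.50e-05). It lies on chromosome 9 as well, 36.4 Mb from Pgr and beside Tmprss4. Tmprss6, matriptase-2, which acts on iron regulation in liver, fell to 0.303 ± 0.161 FPKM in Foxo1dd, against 2.56 ± 0.754 FPKM in Foxo1ff (SD, n = 3 each). Hpn, hepsin, had 26.7 to 34.2 FPKM in Foxo1dd and 33.9 to 44.3 FPKM in Foxo1ff and was not called.

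Of 28 other PRSS genes, 7 passed the minimum, of which 2 rose and 4 fell, and 13 were listed at 0 throughout. Of the 6 called, all but Prss23 averaged under 1 FPKM in the lower group and passed the minimum through the other group alone, so the filter in part fixes these counts. The same holds for Tmprss6, for Scnn1b, Scnn1g and Plau among the substrates, and for Eppin among the inhibitors. Prss23, a secreted serine protease, rose to 217, 302 and 178 FPKM in Foxo1dd, against 32.9, 35.5 and 45.4 FPKM in Foxo1ff (log2 change 2.56, limma adjusted p = 9.33e-06). In each Foxo1dd sample its FPKM was above that of both St14 and Prss8, and in each Foxo1ff sample below both. Its exons lie opposite those of Prss23os, so reads of the 2 genes may be mixed. Prss35, a protease-like protein without the usual catalytic serine, fell to 0.822, 0.145 and 0.0930 FPKM in Foxo1dd, against 51.1, 36.2 and 36.8 FPKM in Foxo1ff.

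Prss12 (neurotrypsin) fell by 2.32 on the log2 scale, and Prss33 rose by 1.70, with 2.57, 0.841 and 4.33 FPKM in Foxo1dd against 0.0170 FPKM in Foxo1ff 3 and a listed 0 in the other Foxo1ff samples. Without Foxo1dd 3, Prss33 did not reach the minimum. Prss28 and Prss29, the implantation serine proteinases made by mouse uterine glands, had low and uneven levels. Prss28 had 0, 0 and 0.198 FPKM in Foxo1dd, against 3.84, 0.852 and 12.2 FPKM in Foxo1ff. Prss29 had 0.614, 0 and 0.219 FPKM in Foxo1dd, against 2.96, 1.69 and 17.6 FPKM in Foxo1ff. Foxo1ff 3 was highest for both genes, and without it the Prss29 change of -2.22 log2 was -1.38 and Prss28 no longer reached the minimum. Both genes are themselves on the glandular marker list.

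Substrates and partners of the proteases moved in both directions. Of 13 listed, 11 passed the minimum, of which 1 rose and 7 fell, beside 22.2% called higher and 34.2% lower over all tested genes. The 3 epithelial sodium channel subunits did not move together. Scnn1a rose to 18.7 ± 0.625 FPKM in Foxo1dd, against 3.09 ± 1.56 FPKM in Foxo1ff (SD, n = 3 each). Scnn1b fell to 0.05, 0.199 and 0.942 FPKM in Foxo1dd, against 22.8, 27.7 and 24.5 FPKM in Foxo1ff. Scnn1g had 0, 0.0450 and 0.181 FPKM in Foxo1dd, against 5.85, 5.38 and 4.21 FPKM in Foxo1ff.

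F2rl1, the gene of PAR2, fell to 34.6 ± 5.60 FPKM in Foxo1dd, against 74.5 ± 19.0 FPKM in Foxo1ff (SD, n = 3 each), a log2 change of -1.07 ± 0.19 (SE, limma adjusted p = 0.00126). Met, the receptor of hepatocyte growth factor, fell by 2.67 on the log2 scale and Hgfac, a protease that activates that factor, by 1.38, while Plau, urokinase, fell by 1.76. Epcam fell to 393 ± 11.6 FPKM in Foxo1dd, against 555 ± 50.1 FPKM in Foxo1ff (SD, n = 3 each; log2 change -0.49, limma adjusted p = 0.00671), a call that was lost under median-of-ratios scaling (adjusted p = 0.0511). Its partner Cldn7 was not called, with a log2 change of 0.24 and a 95% interval from -0.07 to 0.55, and neither were Cdcp1 and Mst1r.

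Among 17 other Kunitz-domain and serpin genes, 5 passed the minimum, of which 2 rose and 1 fell. Serpine2, protease nexin-1, an inhibitor of prostasin, rose to 7.88, 8.36 and 9.47 FPKM in Foxo1dd, against 3.49, 4.32 and 3.54 FPKM in Foxo1ff (log2 change 1.00, limma adjusted p = 0.000547). Eppin, a Kunitz and WAP domain protein known from the male tract, had 5.10, 6.32 and 7.5 FPKM in Foxo1dd, against 0.03 FPKM in Foxo1ff 1 and a listed 0 in the other Foxo1ff samples. Both rises were small in absolute level beside the drop of Spint1 and Spint2. App fell by 0.55 on the log2 scale (limma adjusted p = 0.0248). That call was lost under both other scalings (adjusted p = 0.0523 and 0.0831), without a minimum (0.0607), and without Foxo1dd 2 (0.0727), Foxo1dd 3 (0.0545) or Foxo1ff 1 (0.0800).

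**Figure D5:**
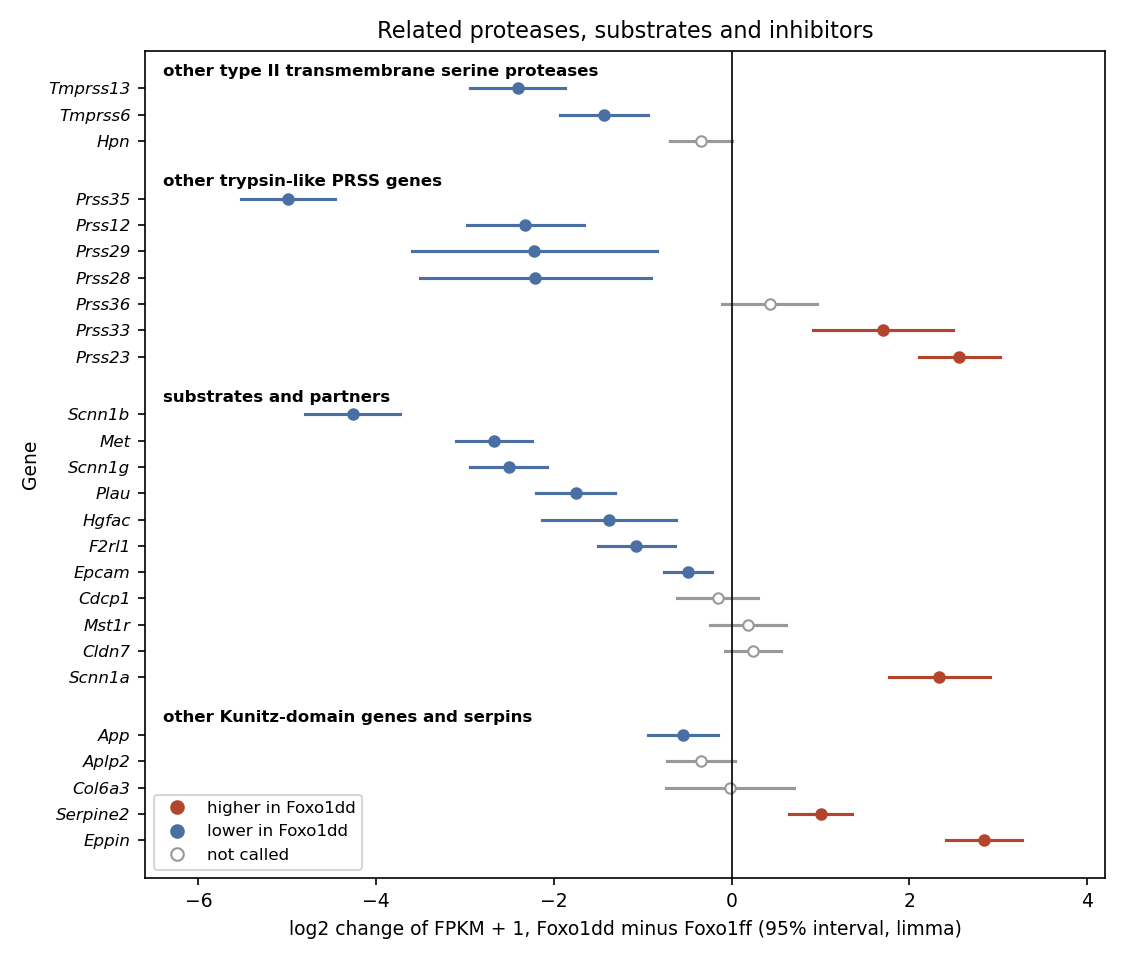
Log2 change of FPKM + 1, Foxo1dd minus Foxo1ff, with 95% intervals from limma (3 samples per group) for every tested gene of the 4 related lists. Among them 5 genes rose, with Eppin at 2.84 and Prss23 at 2.56 the farthest, and 14 fell (10 of these 19 averaged under 1 FPKM in the lower group), with Prss35 at -4.99 and Scnn1b at -4.27 the farthest.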

How the data were processed

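RNA-seq of 6 samples was used as the authors' deposited FPKM table. The submitters' processing notes list the build mm10 and the tools DESeq2 1.12.4, edgeR 3.28.0, featureCounts 1.5.0-p1, STAR 2.5.2b and Subread, without saying what each did. The sources used here do not give annotation, gene lengths or strand setting. Genes averaging 1 FPKM or more entered a limma 3.58.1 fit (R 4.3.3, eBayes with trend, genotype as the only term) on log2(FPKM + 1), with Benjamini-Hochberg adjustment over all 11427 genes tested. Changes are Foxo1dd minus Foxo1ff on that scale, which understates changes of low genes, and folds are ratios of mean FPKM. On simulated data (11113 genes), 78.4% of changes of 1 log2 and 93.8% of changes of 2 log2 were recovered, with 4 false calls. Of the genes run, only 97 were changed by 1 log2 and 96 by 2 log2, whereas 56.4% of tested genes were called here. The simulated spread was that of log2(FPKM + 1) among Foxo1ff samples, which understates the noise of low genes. The simulation therefore does not measure the error of the real comparison.

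Depth was read from the steps in FPKM × length of microRNA and small nucleolar RNA genes (RefSeq lengths). One read was worth 0.0102 to 0.0136 FPKM in a gene of 1 kb, by the largest step that made 80% or more of the values under 12 reads whole (tolerance 0.05 of a read), a limit chosen with the values known. It is least certain in Foxo1dd 2 (27 genes, 88.9% whole). With GENCODE M21 exon lengths this puts Prss22 at 385 to 1180 reads per sample and the other 6 genes at 7400 or more.

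Positions are from GENCODE M21 (GRCm38, the assembly mm10 names) and promoter sequences from RefSeq (GRCm38.p6), where 3 of the 7 genes matched by symbol. Members, lists, motifs and tests were chosen with earlier results of these data known. Named genes were the 7 members, Foxo1 and Pgr, called genes of the 4 related lists (up to 8 each, by p), and the 2 nearest profiles per member; other genes were named after their values were seen. A gene of the substrate, epithelial and luminal lists is not reported here and is left out of their counts, sums and medians.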

Additional observations from a re-analysis of the deposited data

How the results depend on the processing

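The 5 falls and the rise of Prss22 kept their direction and their call in all 16 alternatives. The counts were 5 and 1 in each. Spint1 ranged from -2.16 to -1.91, Tmprss4 from -3.68 to -3.38, St14 from -1.09 to -0.82, Spint2 from -1.07 to -0.76, Tmprss2 from -0.87 to -0.54 and Prss22 from 0.79 to 1.19 log2. Prss8, never called, changed sign under median-of-ratios scaling (0.11), quantile normalization (0.12) and array weights (0.0104), and ran from -0.12 to 0.0849 when 1 sample was left out. The log2 difference of St14 to Spint2 ran from -0.0688 to 0.24 when 1 sample was left out.

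Median-of-ratios scaling moved the median change of all genes by 0.14, to 0.00, and gave 3195 higher and 3293 lower genes, against 2533 and 3912 on the deposited scale. Deviations of same-numbered samples from their group means had r of 0.12, 0.11 and -0.13, within the range of the other pairs (-0.21 to 0.15). With 3 samples a group, this cannot decide whether the numbers pair the samples. With the bioreplicate number as a replicate block, 2417 genes were higher and 3724 lower, and the calls of the 7 genes were as before. Among the related genes, Prss28 lost its call with array weights (adjusted p = 0.116), and Prss29 with them (0.0738) and without a minimum (0.0524). With a minimum mean of 5 FPKM the low related genes were not tested. A pseudocount of 0.1 made changes of genes near 0 larger, as for Scnn1g (-5.03, against -2.51 log2). FPKM of whole genes resolve neither isoforms nor the floxed exon.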
